A study of Mus musculus with 2 samples.

Results

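The 7 genes described here, Ccr2, Ccr6, Ccr7, Ccr9, Cxcr4, Cxcr6 and Gpr15, encode receptors that guide lymphocytes to and within the gut, and were taken by name from the 23679 genes listed for at least 1 of the 2 samples. They were read in single cells sorted as group 3 innate lymphoid cells (ILC3s) from the lamina propria of the small intestine of male C57BL/6 mice aged 18 months. Both samples, replicate 1 (sample tag 6) and replicate 2 (sample tag 12), have the same label, which gives no genotype and does not say if they came from separate animals. Each replicate lies in a library of its own, captured on the BD Rhapsody system, so replicate and library cannot be told apart. Cells of the replicate's own tag were kept where 300 or more genes were read and mitochondrial UMIs made up no more than 25%, a UMI being a tagged molecule counted once.

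The kept cells were split by the UMIs they held, without use of the 7 receptors. T cells had at least 1 UMI of Cd3d, Cd3e or Cd3g and were divided into Trac T cells (more UMIs of Trac than of Trdc; 689 in replicate 1 and 608 in replicate 2), Trdc T cells (more of Trdc; 148 and 135) and unresolved T cells (equal; 312 and 374). Cells with no CD3 UMI were divided into Ncr1 cells (at least 1 Ncr1 UMI; 608 and 438), Cd4 cells (a Cd4 UMI and no Ncr1 UMI; 64 and 51) and the remaining CD3-zero cells, called rest in the figures (1516 and 2234). Trac encodes the constant region of the T cell receptor alpha chain, Trdc that of the delta chain, and Ncr1 the natural cytotoxicity receptor NKp46 carried by one class of ILC3.

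Chemokine receptors are G protein-coupled receptors through which cells move toward a chemokine. CCR9 binds CCL25 from the epithelium of the small intestine, GPR15 directs lymphocytes to the large intestine, CCR6 binds CCL20 made over lymphoid follicles and marks lymphoid tissue inducer-like (LTi-like) ILC3s, and CXCR6 binds the membrane-bound chemokine CXCL16. CCR2 draws cells toward CCL2, CCR7 toward CCL19 and CCL21 in lymph nodes, and CXCR4 toward CXCL12 made by stromal cells.

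The receptors divided the sorted cells along different lines. Among the 6 groups, Ccr2 was highest in the T cells, Ccr9 in the Ncr1 cells and Ccr6 in the Cd4 cells of both replicates. Cxcr6 was read in most cells of every group, Cxcr4 and Ccr7 in few cells of any group, and Gpr15 gave 2 UMIs in all.

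Ccr9, Cxcr6 and Ccr2 lie together on chromosome 9, within 435119 bases from the start of the first to the end of the last (coordinates throughout from GENCODE M21 on GRCm38). Ccr9 spans chr9:123678439-123784330, Cxcr6 chr9:123806475-123811760 and Ccr2 chr9:124101950-124113557, all on the plus strand. Ccr6 spans chr17:8236043-8257141 on the plus strand. Ccr7 (chr11:99144196-99155077), Cxcr4 (chr1:128588199-128592293) and Gpr15 (chr16:58717433-58719070) lie on the minus strand. On the minus strand of chromosome 9, Slc6a20a overlaps the outermost start of the Ccr9 span, Lztfl1 lies inside the Ccr9 span and Cxcr6 lies inside the Fyco1 span. Whether counting used the strand is not given in the sources used here, and without strand the reads of such overlapping genes cannot be told apart.

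The 250 bases before the start site are printed for 3 of the receptors that passed the test between Ncr1 and Cd4 cells, Ccr6 (with both of its listed starts), Ccr9 and Cxcr6, from RefSeq on GRCm38.p6, 5′ to 3′ on the plus strand, which is the strand of each gene. Capitals mark exact matches, on either strand, to 1 of 5 motifs: AGGTCA (half-site of the ROR and RAR nuclear receptors), TGTGGT (RUNX), CTTTGA (TCF and LEF), GCGTG (core of the AHR element) and GTAAACA (FOXO). The first Ccr6 sequence is chr17:8235793-8236042, the second chr17:8242276-8242525, that of Ccr9 chr9:123766961-123767210 (before a RefSeq start that lies inside the GENCODE span, away from Slc6a20a) and that of Cxcr6 chr9:123806227-123806476.
Ccr6, first start: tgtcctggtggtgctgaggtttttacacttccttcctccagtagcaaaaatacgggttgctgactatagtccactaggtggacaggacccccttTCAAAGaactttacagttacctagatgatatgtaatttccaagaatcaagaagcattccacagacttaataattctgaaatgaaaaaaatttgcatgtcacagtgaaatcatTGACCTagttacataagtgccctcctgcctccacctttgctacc
Ccr6, second start: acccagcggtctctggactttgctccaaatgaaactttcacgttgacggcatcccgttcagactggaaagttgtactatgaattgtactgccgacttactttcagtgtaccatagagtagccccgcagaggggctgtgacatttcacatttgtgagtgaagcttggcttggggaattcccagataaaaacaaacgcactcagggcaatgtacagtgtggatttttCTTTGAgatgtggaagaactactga
Ccr9: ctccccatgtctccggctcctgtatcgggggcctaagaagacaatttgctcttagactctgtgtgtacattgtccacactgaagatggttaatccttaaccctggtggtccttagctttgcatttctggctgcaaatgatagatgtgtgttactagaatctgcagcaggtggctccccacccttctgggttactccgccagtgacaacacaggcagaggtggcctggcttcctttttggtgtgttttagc
Cxcr6: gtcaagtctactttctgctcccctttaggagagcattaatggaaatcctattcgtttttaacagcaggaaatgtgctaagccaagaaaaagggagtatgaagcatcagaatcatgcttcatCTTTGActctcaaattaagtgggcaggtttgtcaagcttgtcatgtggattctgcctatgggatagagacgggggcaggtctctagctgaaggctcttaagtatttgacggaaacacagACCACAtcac
The first Ccr6 sequence held AGGTCA on the opposite strand 44 to 39 bases before the start and CTTTGA on the opposite strand 156 to 151 bases before it. The second held CTTTGA 25 to 20 bases before the start. The Cxcr6 sequence held TGTGGT on the opposite strand 10 to 5 bases before the start and CTTTGA 129 to 124 bases before it. None of the 5 motifs lay in the Ccr9 window. Of 32851 windows of this length, 14.0% held AGGTCA, 14.0% TGTGGT, 13.8% CTTTGA, 28.2% GCGTG and 3.17% GTAAACA, so single matches are common, and they describe letters only. Upstream sequences were found for 6 of the 7 receptors, Ccr7 not being among them. The Ccr2 window held no match, that of Cxcr4 held GCGTG 39 to 35 bases before the start, and that of Gpr15 held TGTGGT 2 times.

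The kept cells numbered 3337 in replicate 1 and 3840 in replicate 2, with medians of 1880 and 1674 UMIs per cell and 6939790 and 6810214 UMIs in all. CD3 UMIs were present in 1149 and 1117 of them, although the cells were sorted as ILC3s. The ILC3 list (10 markers, among them Il7r and Il22) summed to 7835 and 8134 CPM (UMIs of a gene or list per 1000000 UMIs of the group) in the Trac T cells, against 10809 and 10838 CPM in the remaining CD3-zero cells. Il22 had 605 and 501 CPM in the Trac T cells, against 2280 and 2443 CPM. Il7r went the other way, at 2202.5 and 2629.5 CPM in the Trac T cells, against 1973 and 2404 CPM. T cell receptor transcripts also occurred without CD3. Trac had 1303 and 1353 CPM in the Trac T cells, which were chosen by it, against 56.1 and 111 CPM in the remaining CD3-zero cells. Trbc2 had 1263 and 1153 CPM in the Trac T cells, against 394 and 485 CPM, while Trbc1 had 359 and 315 CPM in the Trac T cells, against 448 and 447 CPM in the remaining CD3-zero cells. In the Cd4 cells, Trac had 31.1 and 307 CPM, with a UMI in 4.69% and 23.5% of them. Trbc1 (257 and 287 CPM) and Trbc2 (241 and 416 CPM) were lower there than in the remaining CD3-zero cells, as were Lck and Cd8a. Higher there in both replicates were Cd28 (31.1 and 99.0 CPM, against 16.5 and 21.5 CPM), Trat1 (15.6 and 89.1 CPM, against 5.61 and 5.64 CPM) and Cd247. The 11 listed T cell markers summed to 747 and 1446 CPM in the Cd4 cells, against 1196 and 1366 CPM. How many CD3-zero cells are T cells whose CD3 molecules were not caught was not tested, nor was the part of such cells in the Cd4 cell results. The 2 libraries shared 10 cell barcodes among the cells of their own tags. The replicates differed in stromal transcripts: the 6 stromal markers summed to 654 to 8640 CPM over the 6 groups of replicate 1 and to 29.7 to 271 CPM in replicate 2. The 5 B cell markers summed to at most 47.0 CPM in any group. The 4 plasma cell markers summed to 947 and 192 CPM in Trac T cells, 3900 and 241 CPM in Trdc T cells, 3155 and 2873 CPM in Ncr1 cells and 1463 and 297 CPM in Cd4 cells, against 3178 and 2096 CPM in the remaining CD3-zero cells. Igha and Jchain led these sums, except in Trac T, Trdc T and Cd4 cells of replicate 2, where Xbp1 led with 157, 222 and 238 CPM. The part of these markers in the results was not tested.

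A background for shares of cells with a UMI was taken from the remaining CD3-zero cells with at least 5 collagen UMIs and no UMI of Ptprc, the pan-leukocyte gene, of which there were 47 in replicate 1 (median 3213 UMIs) and 5 in replicate 2 (median 2538 UMIs). Ptprc had a UMI in 55.8% and 46.2% of all the remaining CD3-zero cells. Whether some collagen-high cells are lymphocytes whose Ptprc molecules were not caught was not tested. Levels below are the summed UMIs of a group in CPM, and shares carry exact binomial 95% intervals, which cover counting error only. Differences were tested with edgeR's quasi-likelihood test on the summed counts with the sample as a block, on 8098 genes, with p-values adjusted by Benjamini-Hochberg over all of them, and a gene passed when its adjusted p was under 0.05. All 6 groups entered the same fit and shared its estimate of the spread. With 2 samples in all, such a p-value sets a ratio against a spread estimated over all groups of these 2 samples, which may be technical. It does not measure how evenly that ratio held in the 2 replicates. Levels are compared within a gene only, since the counts are not scaled to gene length.

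Of the 7 receptors, 6 had enough counts to be tested and Gpr15 did not. In Trac T cells over the remaining CD3-zero cells, 1 was higher (Ccr2) and 3 were lower (Ccr6, Ccr9 and Cxcr4), where 18.6% of all tested genes passed. In Trdc T cells over the same cells, 1 was higher (Ccr2), where 7.1% of genes passed. In Trdc T cells over Trac T cells none passed by edgeR or by DESeq2, where 1.07% of genes passed by edgeR. At an unadjusted p under 0.05 stood 1 of 6 (Ccr9) by either tool, beside 744 of all 8098 genes by edgeR. In Ncr1 cells over the remaining CD3-zero cells, Ccr9 was higher and Ccr6 lower, where 1.51% of genes passed. In Cd4 cells over the remaining CD3-zero cells, Ccr6 was higher and Ccr9 and Cxcr6 lower, where 2.22% of genes passed. In Ncr1 cells over Cd4 cells, Ccr9 and Cxcr6 were higher and Ccr6 and Ccr7 lower, where 3.46% of genes passed. Comparisons with the remaining CD3-zero cells share those cells, and both comparisons with Cd4 cells rest on 64 and 51 of them. Without the sample as a block, the call that held was that of Ccr6 in Ncr1 cells over Cd4 cells.

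**Figure D1:**
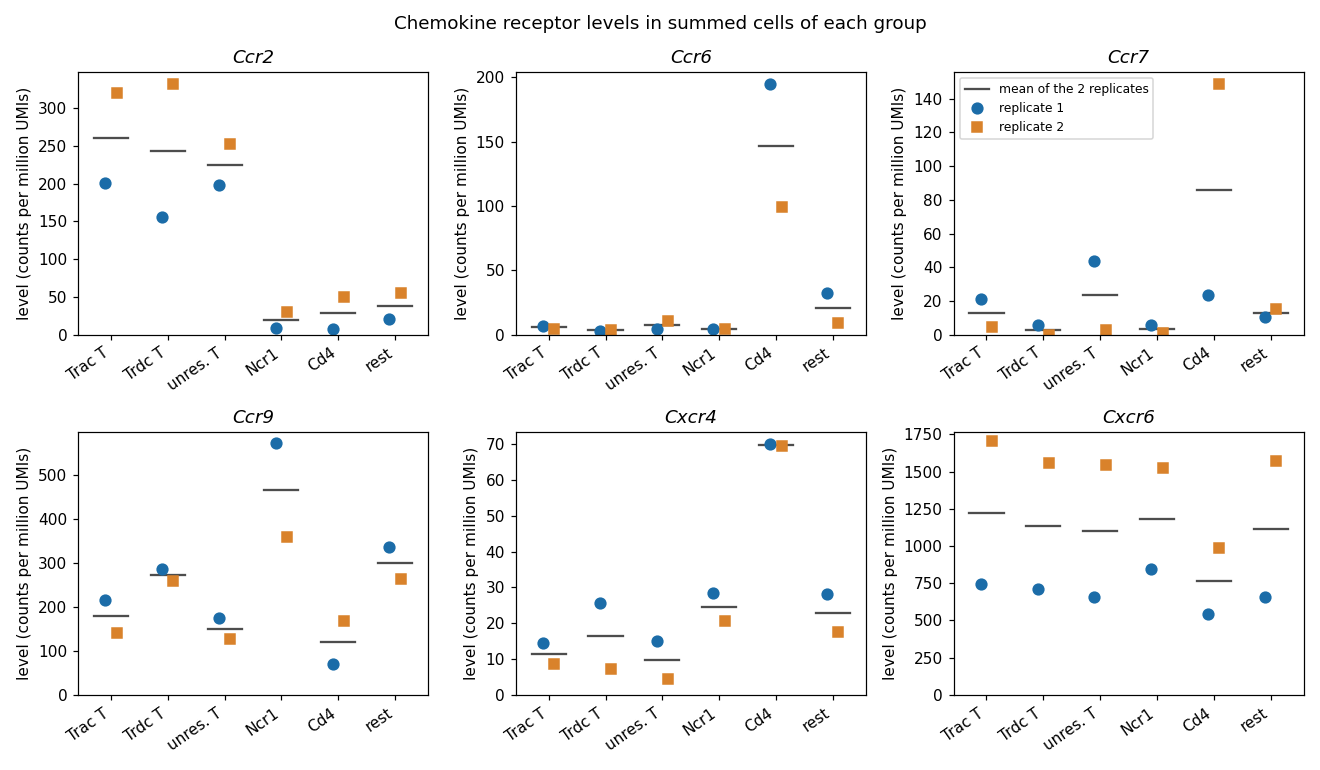
Level of 6 receptors (y axis, CPM; scales differ between panels) in the summed cells of each group (x axis), with 1 point per replicate and a line at their mean. Ccr2 is high in the 3 T cell groups, Ccr9 in the Ncr1 cells and Ccr6 in the Cd4 cells, while every Cxcr6 point of replicate 2 lies above every point of replicate 1.

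**Figure D2:**
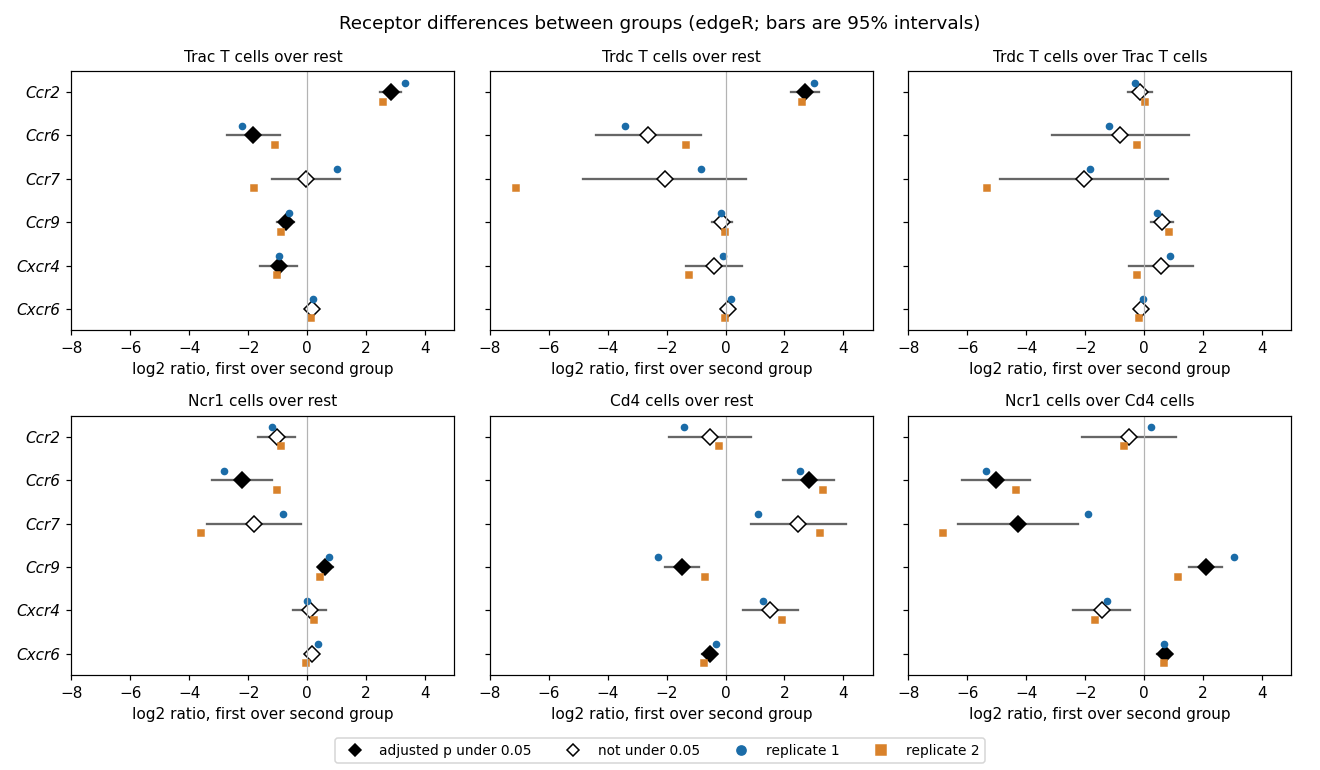
Log2 ratio of each tested receptor (x axis) in 6 comparisons, as fitted with edgeR (diamonds, filled where the adjusted p was under 0.05) with 95% intervals (bars), and in each replicate alone (circles and squares). The largest fitted ratio in size is that of Ccr6 in Ncr1 cells over Cd4 cells, at -5.02.

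Ccr9, the receptor of small-intestinal homing, was highest among the 6 groups in Ncr1 cells, at 572 CPM in replicate 1 and 358 CPM in replicate 2. The remaining CD3-zero cells had 337 and 262 CPM, Trdc T cells 286 and 259 CPM, and Trac T cells 217 and 141 CPM. Unresolved T cells had 174 and 127 CPM, and Cd4 cells 70.0 and 168 CPM, which rest on 9 and 17 UMIs. In the order of the means, Ncr1 cells stood above the remaining CD3-zero cells and Trdc T cells above Trac T cells with no overlap of their replicates, and the other neighbours overlapped. A Ccr9 UMI was found in 53.6% (49.6 to 57.6%) and 37.9% (33.3 to 42.6%) of Ncr1 cells, against 31.5% and 26.7% of the remaining CD3-zero cells, and in 21.6% and 16.0% of Trac T cells. In the collagen-high cells, which are deeper, the share was 9 of 47 in replicate 1 (19.1%, interval 9.15 to 33.3%; 85.9 CPM) and 0 of 5 in replicate 2. Cd4 cells of replicate 1 were below that background in share (7.81%) and in CPM, and cannot be told apart from it. The interval also covers the shares in replicate 1 of the remaining CD3-zero cells and of Trac T, Trdc T (31.8%) and unresolved T cells (18.9%), whose CPM were above the background.

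Ccr9 was higher in Ncr1 cells than in the remaining CD3-zero cells by 0.62 on the log2 scale (SE 0.13, adjusted p = 0.00693), with 0.76 in replicate 1 and 0.45 in replicate 2. The ratio of Ncr1 cells over Cd4 cells was 2.09 (SE 0.27, adjusted p = 7.41e-06), with 3.07 and 1.15 in the 2 replicates. Cd4 cells stood below the remaining CD3-zero cells at a log2 ratio of -1.47 (SE 0.28, adjusted p = 0.00238), and Trac T cells did so at -0.73 (SE 0.14, adjusted p = 0.000174). Ncr1 cells were also deeper, with a median of 2045 and 1860 UMIs per cell against 1713.5 and 1579 in the remaining CD3-zero cells. In cells thinned to 1000 UMIs each, the share with Ccr9 was 36.7% and 28.6% of Ncr1 cells, against 21.7% and 19.6% of the remaining CD3-zero cells, so the order held at equal depth. Trdc T cells over Trac T cells gave 0.61 (95% interval 0.25 to 0.98, adjusted p = 0.114), a difference that did not pass. The call of Ncr1 over the remaining CD3-zero cells was lost with DESeq2 and without cells holding B, myeloid or stromal transcripts. The myeloid list of that cut includes Fcer1g, which had a UMI in 95.2% and 86.5% of Ncr1 cells and 83.4% and 71.1% of the remaining CD3-zero cells. The call held under a cut chosen after seeing the data, without Fcer1g and with another stromal limit. The Trac T call was lost when CD3-zero cells with a UMI of Trac, Trbc1 or Trbc2 were left out or under stricter cell filters.

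Among Trac T cells, Ccr9 followed the co-receptor transcripts. Cells with a Cd4 UMI and none of Cd8a or Cd8b1 (104 in replicate 1 and 52 in replicate 2) had 721 and 652 CPM of Ccr9, cells with a Cd8a or Cd8b1 UMI and none of Cd4 (109 and 39) had 239 and 167 CPM, and cells with neither (473 and 517) had 86.5 and 87.0 CPM. Those levels did not overlap between the 3 classes. The shares with a Ccr9 UMI were 54.8% and 57.7%, 41.3% and 28.2%, and 9.30% and 10.8%, while the median depths of the classes ran from 1782 to 2305 UMIs. Ccr2 ran the other way between the first and the last class, with a UMI in 9.62% and 7.69% of the cells with Cd4 and in 35.7% and 37.5% of the cells with neither. In the cells with Cd8a or Cd8b1 the shares with Ccr2 were 8.26% and 25.6%. Cxcr6 was read in 47.1% and 73.1% of the cells with Cd4, in 45.9% and 71.8% of those with Cd8a or Cd8b1 and in 76.5% and 89.0% of those with neither. These classes were described and not tested, and a cell with neither transcript may carry a co-receptor whose molecules were not caught.

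**Figure D3:**
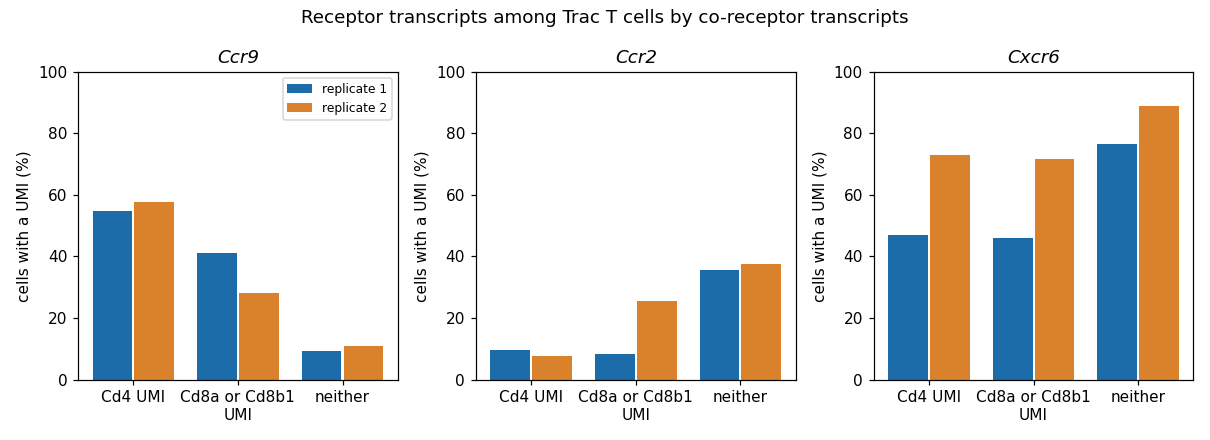
Share of Trac T cells with a UMI of Ccr9, Ccr2 or Cxcr6 (y axis, percent of cells), by the co-receptor transcripts they held (x axis) and by replicate (bars, 1 value each, no error shown). Ccr9 is lower in each next class in both replicates, while Ccr2 and Cxcr6 are highest in the cells with neither co-receptor.

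Gpr15, the receptor of large-intestinal homing, was close to absent from the counts. It gave 1 UMI in 1 of 608 Ncr1 cells of replicate 1 and 1 UMI in 1 of 2234 remaining CD3-zero cells of replicate 2. The other groups had 0 UMIs, for which the exact interval reaches up to 0.534% and 0.605% of the Trac T cells and 5.60% and 6.98% of the Cd4 cells. A limit of 3 cells would be 0.435% and 0.493% of the Trac T cells and 4.69% and 5.88% of the Cd4 cells. No difference between groups was detectable at this depth.

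Ccr6, the LTi-associated receptor, was highest in Cd4 cells, at 195 and 99.0 CPM from 25 and 10 UMIs. The remaining CD3-zero cells had 32.6 and 9.40 CPM from 93 and 35 UMIs. Ncr1 cells had 4.48 and 4.59 CPM, Trac T cells 6.86 and 4.24 CPM, Trdc T cells 2.83 and 3.65 CPM and unresolved T cells 4.49 and 10.6 CPM. Both Cd4 values lay above every value of the other 5 groups, while the remaining CD3-zero cells and the unresolved T cells overlapped. A UMI was found in 15 of 64 Cd4 cells (23.4%, interval 13.8 to 35.7%) and 7 of 51 (13.7%, interval 5.70 to 26.3%), against 4.22% and 1.25% of the remaining CD3-zero cells. In the collagen-high cells it was found in 1 of 47 (2.13%, interval 0.0539 to 11.3%) and 0 of 5. The shares in Ncr1 cells, 0.658% and 0.685%, lay below 2.13% and cannot be told apart from this background. That 2.13% rests on 1 cell and comes from replicate 1 only. The shares in the T cell groups, 0.676% to 1.60%, and in the remaining CD3-zero cells of replicate 2 also lay below 2.13%. The interval covers the share of the remaining CD3-zero cells of replicate 1 too, whose level was above the 5.72 CPM of the collagen-high cells.

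The log2 ratio of Ccr6 in Ncr1 cells over Cd4 cells was -5.02 (SE 0.56, 95% interval -6.18 to -3.87, adjusted p = 7.65e-07), at -5.36 in replicate 1 and -4.34 in replicate 2. It passed under every alternative that tested it, with adjusted p from 7.34e-19 to 0.0326. Cd4 cells stood above the remaining CD3-zero cells by 2.82 (SE 0.42, adjusted p = 0.000133), at 2.53 and 3.32. Ncr1 cells stood below the remaining CD3-zero cells at -2.20 (SE 0.50, adjusted p = 0.0154) and Trac T cells at -1.82 (SE 0.44, adjusted p = 0.0031). Trdc T cells held 1 Ccr6 UMI in each replicate, and their difference did not pass (adjusted p = 0.0674). Leaving out CD3-zero cells with a UMI of Trac, Trbc1 or Trbc2 ended the calls of Cd4 cells and of Ncr1 cells over the remaining CD3-zero cells, and DESeq2 ended those of Ncr1 and Trac T cells. Thinned to 1000 UMIs, 17.2% and 8.51% of Cd4 cells kept a Ccr6 UMI.

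CD3-zero cells with a Ccr6 UMI, 83 in replicate 1 and 38 in replicate 2, were also read for transcripts of MHC class II. At least 2 UMIs of H2-Aa, H2-Ab1 and Cd74 together, genes of antigen presentation, were found in 39 of 83 and 19 of 38 of them, against 11.4% and 6.85% of the CD3-zero cells without a Ccr6 UMI. Median depths were 1578 and 1759 UMIs with Ccr6, against 1805 and 1621 without it. T cell markers ran the other way, with at least 2 UMIs of that list in 28.9% and 26.3% of the cells with Ccr6, against 59.2% and 57.3% of those without. The list includes Trbc1 and Trbc2, which many CD3-zero cells held, so it does not mark T cells alone. Kit, the stem cell factor receptor of many ILC3s, was found in 50.6% and 55.3%, against 45.9% and 34.0%. These shares describe cells of 2 samples and were not tested.

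Cxcr6 was the receptor found in the largest share of cells of every group. Its level was 742 and 1708 CPM in Trac T cells, 709 and 1561 CPM in Trdc T cells and 660 and 1542 CPM in unresolved T cells. Ncr1 cells had 847 and 1522 CPM, the remaining CD3-zero cells 659 and 1570 CPM and Cd4 cells 545 and 990 CPM, the lowest group in both replicates. The ratio of replicate 2 over replicate 1 was above 1 in every group and reached 2.38 in the remaining CD3-zero cells, so the ranges of all 6 groups overlap, and replicate and library cannot be told apart. The share of cells with a UMI ran from 51.6% (Cd4 cells) to 75.0% (Ncr1 cells) in replicate 1 and from 52.9% (Cd4 cells) to 86.5% (Trac T cells) in replicate 2. The collagen-high cells had 15 of 47, or 31.9%, and 2 of 5.

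With the replicate as a block, Cxcr6 was lower in Cd4 cells than in the remaining CD3-zero cells at a log2 ratio of -0.55 (SE 0.13, adjusted p = 0.0141), at -0.32 in replicate 1 and -0.73 in replicate 2. Ncr1 cells stood above Cd4 cells by 0.70 (SE 0.13, adjusted p = 0.000695), at 0.68 in each replicate. The other 4 comparisons gave -0.10 to 0.17 and did not pass, with 95% intervals inside -0.31 to 0.36. The first call was lost with DESeq2, and also without the CD3-zero cells that held Trac, Trbc1 or Trbc2. Leaving out those same cells made Cxcr6 pass in Trac T cells over the remaining CD3-zero cells.

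Ccr2, the receptor of inflammatory recruitment, was higher in the T cell groups than in the CD3-zero groups of these samples. The remaining CD3-zero cells still held 58 of 579 Ccr2 UMIs in replicate 1 and 205 of 872 in replicate 2. Trac T cells had 200.3 and 321 CPM, Trdc T cells 156 and 332 CPM and unresolved T cells 198 and 253 CPM. The remaining CD3-zero cells had 20.4 and 55.0 CPM, Ncr1 cells 8.97 and 29.9 CPM and Cd4 cells 7.78 and 49.5 CPM, the last from 1 and 5 UMIs. All 6 values of the T cell groups lay above all 6 values of the CD3-zero groups, and within each set the groups overlapped. Within each replicate, Ncr1 cells lay below the remaining CD3-zero cells, a difference that did not pass. It passed when cells were thinned, with no filter on low counts and without cells holding B, myeloid or stromal transcripts. The share with a UMI was 27.3% (24.0 to 30.8%) and 34.2% (30.4 to 38.1%) of Trac T cells, against 2.70% and 5.73% of the remaining CD3-zero cells. In the collagen-high cells it was 3 of 47 (6.38%) and 1 of 5, at 17.2 CPM in replicate 1. The shares and levels in the Ncr1 and Cd4 cells of replicate 1 lay below that background and cannot be told apart from it. The share of the remaining CD3-zero cells of replicate 1 also lay below 6.38%, while their level of 20.4 CPM was above 17.2 CPM. Every group was higher in replicate 2, by 1.28 to 6.36 times.

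The log2 ratio over the remaining CD3-zero cells was 2.83 in Trac T cells (SE 0.17, adjusted p = 2.95e-13), at 3.32 and 2.56 in the 2 replicates. It was 2.70 in Trdc T cells (SE 0.23, adjusted p = 1.01e-09), at 2.99 and 2.59. Trdc T cells over Trac T cells gave -0.13 (95% interval -0.54 to 0.27, adjusted p = 0.918), so a difference of either sign within that interval was not resolved. Without the sample as a block the adjusted p-values were 0.0577 for Trac T cells and 0.147 for Trdc T cells, and every other alternative kept both calls. Among CD3-zero cells, those with a Ccr2 UMI held at least 2 UMIs of the T cell list in 80.4% (replicate 1) and 69.3% (replicate 2), against 57.5% and 56.1% of those without, at median depths of 1795 and 1621.5 against 1802 and 1622 UMIs. That list includes Trbc1 and Trbc2, with a UMI in 44.4% and 41.0% of the remaining CD3-zero cells of replicate 1 and 43.2% and 43.5% in replicate 2. Passing it therefore does not make a cell a T cell.

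Ccr7, the receptor of lymph node entry, was rare, and single cells held much of its signal. Cd4 cells had 23.3 and 149 CPM from 3 and 15 UMIs, and 13 of those 15 came from 1 cell. Unresolved T cells had 43.4 and 3.03 CPM, and all 29 UMIs of replicate 1 came from 1 cell. Trac T cells had 21.2 and 4.24 CPM, with 24 of 34 UMIs of replicate 1 in 1 cell. The remaining CD3-zero cells had 10.5 and 15.3 CPM, Ncr1 cells 5.98 and 1.15 CPM, and Trdc T cells 5.67 and 0 CPM. No 2 neighbours in the order of the means differed beyond the range of their replicates. Ncr1 cells stood below Cd4 cells at a log2 ratio of -4.28 (SE 1.00, adjusted p = 0.01), at -1.90 in replicate 1 and -6.82 in replicate 2. It was -2.77 once the cell with the most Ccr7 UMIs was left out of each group, with no test. Cd4 cells over the remaining CD3-zero cells gave 2.48 (adjusted p = 0.105), and 0.72 without those cells. CD3-zero cells with a Ccr7 UMI, 33 in replicate 1 and 30 in replicate 2, held at least 2 MHC class II UMIs in 63.6% and 76.7%, against 12.0% and 6.68% of those without. At least 2 UMIs of the 6 defining myeloid markers (Lyz2, Csf1r, Cd68, C1qa, C1qb and Adgre1) were found in 9.09% and 0% of them. In the Cd4 cells as a group, Adgre1 had a UMI in 4.69% and 15.7%, against 0.858% and 0.269% of the remaining CD3-zero cells. Each other marker of the 6 was found in at most 1.96% of Cd4 cells. The part of other antigen-presenting cells in the Ccr7 values was not tested.

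Cxcr4, the receptor of CXCL12, had 70.0 and 69.3 CPM in Cd4 cells, from 9 and 7 UMIs. Ncr1 cells had 28.4 and 20.7 CPM, the remaining CD3-zero cells 28.1 and 17.5 CPM, Trdc T cells 25.5 and 7.29 CPM, Trac T cells 14.4 and 8.48 CPM and unresolved T cells 15.0 and 4.54 CPM. The Cd4 values lay above all others, and the other groups overlapped with their neighbours in the order. Even so, Cd4 cells over the remaining CD3-zero cells gave 1.52 (95% interval 0.60 to 2.45, adjusted p = 0.0782) and did not pass, nor did Ncr1 cells over Cd4 cells, at -1.44 (adjusted p = 0.096). Trac T cells stood below the remaining CD3-zero cells at -0.97 (SE 0.31, adjusted p = 0.0253), at -0.94 and -1.01. That call was lost with DESeq2 and under stricter cell filters. No collagen-high cell held a Cxcr4 UMI, which for the 47 in replicate 1 allows a share of up to 7.55% by the exact interval and 6.38% as a limit of 3 cells.

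Most cells held UMIs of 1 or 2 of the receptors. In replicate 1, 49.8% of Trac T cells and 39.1% of Ncr1 cells held exactly 1, and 30.6% and 43.4% held 2, while in replicate 2 the shares with 2 were 39.1% and 33.3%. Cells with none made up 32.8% and 29.4% of Cd4 cells, against 28.7% and 14.0% of the remaining CD3-zero cells. Pairs of receptors were read in cells thinned to 1000 UMIs, where a missed molecule can still hide a receptor.

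UMIs of Ccr2 and Ccr9 met in few cells. Among T cells, 10 of 191 cells with Ccr2 in replicate 1 and 12 of 244 in replicate 2 also held Ccr9, or 5.24% (2.54 to 9.42%) and 4.92% (2.57 to 8.43%). Among T cells without Ccr2 the share with Ccr9 was 16.3% (13.9 to 18.8%) and 12.2%, and the intervals with and without Ccr2 did not overlap in either replicate. Among CD3-zero cells, 0 of 33 cells with Ccr2 in replicate 1 and 4 of 86 in replicate 2 held Ccr9, against 26.0% and 21.6% of those without Ccr2.

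Of the CD3-zero cells with Ccr6, 2 of 54 held Ccr9 in replicate 1 (3.70%, interval 0.452 to 12.7%) and 4 of 24 in replicate 2 (16.7%, interval 4.74 to 37.4%), against 26.2% and 21.0% of those without Ccr6, and the intervals overlapped in replicate 2. Cxcr6 was found in 31.5% and 45.8% of CD3-zero cells with Ccr6, against 46.7% and 70.2% of those without. CD3-zero cells with Ccr9 held Cxcr6 in 56.2% (51.9 to 60.5%) and 75.0% (71.1 to 78.7%), against 42.9% and 68.6% of those without, whereas T cells with Ccr9 held it in 39.4% and 66.1%, against 49.3% and 70.7%. These shares pool the groups of each class and were not tested.

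**Figure D4:**
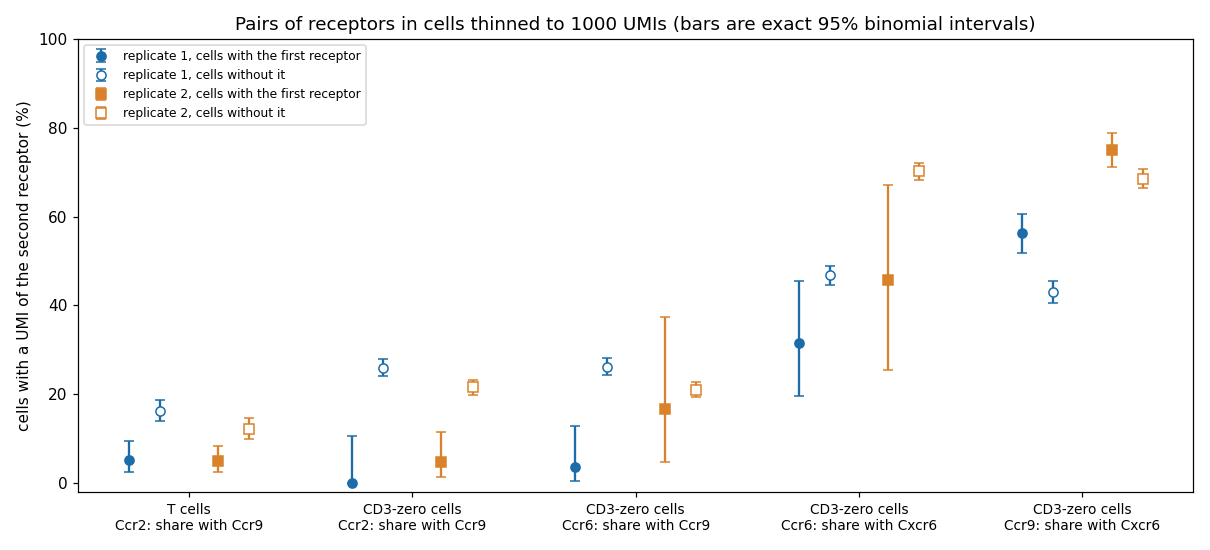
Share of cells with a UMI of the second receptor (y axis, percent) among cells with and without a UMI of the first, for 5 pairs (x axis), in cells thinned to 1000 UMIs, with exact 95% binomial intervals. Ccr9 is found in 5.24% and 4.92% of T cells with Ccr2, against 16.3% and 12.2% of those without it.

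Of 24 other chemoattractant receptors, 13 could be tested, and 4 were higher and 3 lower in Trac T cells than in the remaining CD3-zero cells (median log2 ratio 0.27, against -0.02 over all genes), where 18.6% of all genes passed. In Trdc T cells 1 was higher and 2 lower over the same cells, where 7.1% of all genes passed. The other comparisons called at most 1 each. Cxcr5, the receptor of B cell follicles, had 101 and 79.2 CPM in Cd4 cells, against 23.5 and 6.71 CPM in the remaining CD3-zero cells (log2 ratio 2.57, adjusted p = 0.00331). It had 2.99 and 2.30 CPM in Ncr1 cells, a log2 ratio of -5.05 over Cd4 cells (adjusted p = 1.93e-05). It thus stood in the same order as Ccr6 in these groups.

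Ccrl2, an atypical receptor that binds chemerin, had 63.6 and 43.2 CPM in Trac T cells, against 226 and 240.0 CPM in the remaining CD3-zero cells (log2 ratio -2.08, adjusted p = 4.77e-10). Gpr55 was higher in Trac T cells by 2.10 (adjusted p = 1.39e-06), with 38.1 and 59.4 CPM there, against 6.67 and 16.4 CPM in the remaining CD3-zero cells. Ackr3, the scavenging receptor of CXCL12, had 17.0 and 29.2 CPM in Trdc T cells, against 72.6 and 134 CPM in the remaining CD3-zero cells (log2 ratio -2.13, adjusted p = 7.15e-05). Ptger4, a receptor of prostaglandin E2, was the receptor that separated the T cell groups, with 28.3 and 21.9 CPM in Trdc T cells against 82.4 and 67.8 CPM in Trac T cells (log2 ratio -1.56, adjusted p = 0.0213).

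Of the genes next to Ccr9, Cxcr6 and Ccr2, or listed with them on chromosome 9, 7 of 11 could be tested. In Trac T cells 1 was higher and 3 were lower than in the remaining CD3-zero cells, beside 18.6% of all genes passing. Slc6a20a, a proline transporter gene that overlaps the outer end of the Ccr9 span on the other strand, had 531 and 438 CPM in Ncr1 cells, against 319 and 316 CPM in the remaining CD3-zero cells (log2 ratio 0.61, adjusted p = 0.0015). It had 62.3 and 69.3 CPM in Cd4 cells (log2 ratio -2.34, adjusted p = 2.87e-06) and 26.8 and 31.4 CPM in Trac T cells (log2 ratio -3.44, adjusted p = 5.93e-16). Its order over the CD3-zero groups was that of Ccr9, whereas the log2 ratio in Trac T cells was -3.44 for Slc6a20a and -0.73 for Ccr9. Whether reads of one gene were counted for the other was not tested. Lztfl1 and Fyco1, which lie over Ccr9 and Cxcr6, passed in none of the 6 comparisons by edgeR, adjusted or at an unadjusted p under 0.05.

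The ligands of the receptors were scarce. Of 11 listed, 10 were in the tables and 3 could be tested. Ccl25, the ligand of CCR9, reached at most 10.3 CPM in any group, Ccl20, the ligand of CCR6, at most 4.54 CPM, and Ccl19 was 0 in all. Cxcl16, the ligand of CXCR6, had 2.24 and 0 CPM in Ncr1 cells, against 14.7 and 6.44 CPM in the remaining CD3-zero cells (adjusted p = 0.0492). Cxcl12 had 11.3 and 0 CPM in Trdc T cells, 42.6 and 0 CPM in Ncr1 cells and 7.78 and 0 CPM in Cd4 cells, against 86.7 and 2.42 CPM in the remaining CD3-zero cells. It was lower than there in Trdc T cells (adjusted p = 0.000468), Ncr1 cells (adjusted p = 0.0306) and Cd4 cells (adjusted p = 0.0282). The stromal list summed to 1239 and 47.4 CPM in Trdc T cells, 3960 and 37.9 CPM in Ncr1 cells and 654 and 29.7 CPM in Cd4 cells, against 4945 and 100.4 CPM in the remaining CD3-zero cells, and its part in the Cxcl12 result was not tested.

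Of 24 listed genes that carry or damp the receptors' signal, 23 were in the tables and 22 could be tested. In Trac T cells 5 were higher and none lower than in the remaining CD3-zero cells, and in Trdc T cells 2 were higher, shares near the 18.6% and 7.1% of all genes that passed. Rgs1, which shortens signalling of G protein-coupled receptors, had 3062 and 3367 CPM in Ncr1 cells, against 1837 and 2446 CPM in Cd4 cells (log2 ratio 0.66, adjusted p = 3.64e-05). Dock8, a guanine nucleotide exchange factor needed for lymphocyte migration, had 233 and 228 CPM in Cd4 cells, against 125 and 78.9 CPM in the remaining CD3-zero cells (log2 ratio 1.10, adjusted p = 0.00848). Rgs2 was lower in Trdc T cells than in Trac T cells (log2 ratio -0.54, adjusted p = 0.00209).

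Of 18 transcription factors linked to expression of these receptors, 15 could be tested. In Trac T cells over the remaining CD3-zero cells 2 were higher and 3 lower, in Trdc T cells 1 was higher and 2 lower (18.6% and 7.1% of all genes passed), and the comparisons among the CD3-zero groups called at most 2 each. Foxo1, a factor that sustains naive T cell homing receptors, had 248 and 424 CPM in Trac T cells, against 135 and 200.3 CPM in the remaining CD3-zero cells (log2 ratio 1.00, adjusted p = 6.08e-08). Zbtb16, which encodes PLZF of innate-like T cells, had 93.6 and 310 CPM in Trac T cells, against 57.5 and 155 CPM in the remaining CD3-zero cells (log2 ratio 0.90, adjusted p = 7.48e-06). Tcf7, which encodes TCF1, had 264 and 249 CPM in Ncr1 cells, against 521 and 426 CPM in Cd4 cells (log2 ratio -0.84, adjusted p = 0.00528).

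The genes whose pattern was most like each receptor were sought by Pearson's r of log2 CPM over the 12 sums of 6 groups and 2 replicates, centred within each replicate, among 8092 genes. Ccr2 was most like Tcrg-C2 (r = 0.987), Cd8a (0.980) and Lat (0.979), all transcribed in T cells. That likeness is between groups. Among Trac T cells, a Ccr2 UMI was found in 8.26% and 25.6% of those with Cd8a or Cd8b1, against 35.7% and 37.5% of those with neither co-receptor. Ccr6 was most like Cxcr5 (0.971), Scn3b (0.971) and Cd81 (0.959), and Ccr9 most like Pik3r1 (0.958) and 4930503L19Rik (0.953). Cxcr6 was most like Tmsb10 (0.968), Zap70 (0.963) and Mpc1 (0.955). For the rare receptors the nearest were Pcf11 (0.907), Atxn7l1 (0.903) and Washc4 (0.893) for Ccr7, and Pde6d (0.955), Myo7a (0.955) and C2cd5 (0.944) for Cxcr4. The 12 sums share 2 samples, their libraries and their depth, so these r values are descriptions only.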

How the data were processed

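Cells sorted as ILC3s from aged mouse small intestine were profiled by single-cell RNA sequencing. The authors deposited, per the file headers, UMI counts per gene and cell from version 1.8 of BD's WTA Multiplex Rhapsody pipeline (GRCm38, GENCODE M19), and a table of sample tag calls. HISAT2 2.0.5, Bowtie2, mm10 and GRCm38.p6 appear in the submitters' processing notes, with no role given. Of 15793 cells in the first library and 16531 in the second, 3427 and 3954 carried the sample's tag, and 3337 and 3840 were kept. Cells called multiplets (572 and 987), undetermined (1128 and 674) or of other tags (10666 and 10916) were not used, and no doublet caller was run beyond the tag calls.

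UMI counts were summed per replicate and group, groups of at least 20 cells entering. They were tested with edgeR 4.0.16 in R 4.3.3 (TMM, filterByExpr, quasi-likelihood F test, replicate as block, Benjamini-Hochberg over 8098 genes). The test was checked on simulated counts. Alternatives were DESeq2 1.42.0, its size factors, no filter on low counts, no block, other cell filters, thinning to 1000 UMIs, other gates, cells of other types left out, each replicate left out, and, chosen after seeing the data, the cell with the most UMIs of a receptor left out of each group. The receptors and gene lists were chosen with earlier results of these data known. Beyond the receptors, the text names up to 3 called genes per list and comparison with the largest log2 ratios and the 3 genes most like each receptor; values of the overlapping genes, of MHC class II, Kit and co-receptor classes were chosen after values were seen. A few genes that this rule selects are not reported here.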

Additional observations from a re-analysis of the deposited data

How the results depend on the processing

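Of the choices tried, the sample as a block is given first. With no replicate block, genes called fell to 145 in Trac T cells over the remaining CD3-zero cells, 46 in Trdc T cells, 0 in Ncr1 cells (62 at an unadjusted p under 0.05) and 5 in Cd4 cells, and to 3 in Trdc T over Trac T cells and 12 in Ncr1 over Cd4 cells, against 1508, 575, 122, 180, 87 and 280 with the block. Receptors called were then 0 in Trac T, Trdc T, Ncr1 and Cd4 cells over the remaining CD3-zero cells and 1 in Ncr1 over Cd4 cells. For the same 4 groups over the remaining CD3-zero cells, other settings gave these counts. In Trac T cells, DESeq2 called 872 genes and 2 receptors, stricter cell filters 2 receptors, and leaving out cells with B, myeloid or stromal transcripts 915 genes. With CD3-zero cells also without Trac, Trbc1 and Trbc2, Cxcr6 was called there and Ccr9 was not. In Trdc T cells, no filter on low counts, CD3-zero cells also without Trac, Trbc1 and Trbc2, and leaving out cells with defining myeloid, B or stromal transcripts (an alternative chosen after seeing the data) each called 2 receptors. In Ncr1 cells, genes called were 10 with DESeq2 (229 unadjusted), 207 with no filter, 61 when thinned, 22 without the list cells and 53 without the defining cells. Receptors called were 0 with DESeq2 (3 unadjusted), 4 with no filter and 1 without the list cells or with the stricter CD3-zero gate. Without the list cells it was Ccr2, which the main fit did not call, and with the stricter gate it was Ccr9. Some receptors had too few counts to be tested without the list cells. In Cd4 cells, 331 genes were called with no filter, 115 when thinned and 105 with the stricter gate, which called 1 receptor. Ncr1 over Cd4 cells gave 186 genes when thinned, and Trdc T over Trac T cells 1 receptor (Ccr9) under both ways of leaving out other cells. The cause of these changes was not tested. The list cells, counted with Fcer1g in the myeloid list, numbered 2010 and 1543 in the 2 replicates, and the defining cells 202 and 25. Leaving out the list cells left 17 Cd4 cells in replicate 1, so comparisons with Cd4 cells were not run there.

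No called receptor turned its direction where tested. Uncalled log2 ratios that turned were Ccr7 in Trac T cells (0.012 with no replicate block, 0.027 with stricter filters, 0.23 with at least 2 CD3 UMIs, 0.17 without the defining cells); Ccr9 (0.32, stricter gate), Cxcr4 (0.16, stricter filters) and Cxcr6 (-0.034, no filter on low counts) in Trdc T cells; Ccr2 (0.033 with stricter filters, 0.012 with at least 2 CD3 UMIs) and Cxcr4 (-0.49, at least 2 CD3 UMIs) in Trdc T over Trac T cells; Cxcr4 in Ncr1 cells (-0.0084, without the list cells); and Ccr2 in Ncr1 over Cd4 cells (5.51, stricter gate). Without the cell with the most UMIs of the receptor in each group (no test), 10 log2 ratios moved by more than their spread; among called ones these were Cxcr4 in Trac T cells (-1.16) and Cxcr6 in Ncr1 over Cd4 cells (0.85), and uncalled Ccr2 in Ncr1 over Cd4 cells changed sign (0.28). DESeq2 size factors and looser cell filters changed no call, and Ccr7 had too few counts to be tested in thinned cells. The 2 replicates and the 64 and 51 Cd4 cells limit what could be resolved.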
